A study of Homo sapiens with 2 samples.

Results

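Genes of the endoplasmic reticulum (ER) stress response, of the transcription factor ATF4 and of serine synthesis were described in CP-A cells, a non-dysplastic Barrett's epithelial line immortalized with telomerase reverse transcriptase (TERT). The 36 genes were taken from a list, matched by gene symbol, and 35 of them were measured among 17658 genes of the autosomes and X. ATF5 was not analysed here. The list holds 19 targets of ATF4, 6 sensors and regulators, and 11 targets of XBP1 and ATF6. RNA from 1 control culture was compared with RNA from 1 culture treated with pH 6.4 + DCA, where DCA is deoxycholic acid, a secondary bile acid. Both cultures were CP-A cells in the same supplemented medium with serum, epidermal growth factor, hydrocortisone and cholera toxin. According to the methods, CP-A received 3 such exposures, each of 48 h and with 100 µM DCA, with growth in basal medium between them, and was collected at subconfluence after the last. Each condition had 1 Clariom S array, and without replicates neither errors nor tests can be given for any difference.

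The ER folds and modifies secreted and membrane proteins. When unfolded proteins build up there, 3 sensors in its membrane respond. PERK, encoded by EIF2AK3, phosphorylates the initiation factor eIF2, which slows most translation but favours that of ATF4. IRE1, encoded by ERN1, splices the mRNA of XBP1, and ATF6 is cut to release a transcription factor. ATF4 is also reached by other eIF2 kinases that sense amino acid shortage, heme shortage or double-stranded RNA, and it switches on genes of amino acid synthesis and transport, serine synthesis among them, whereas XBP1 and ATF6 switch on chaperones and genes of protein degradation. ATF4 is controlled mainly in translation, XBP1 by splicing and ATF6 by cleavage, and the array values of these genes read only the total mRNA. Bile acids are known inducers of ER stress in epithelial cells.

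Both branches are known to act through short DNA elements, and the elements found before the start of member genes are shown for that reason. Promoter windows of 300 bases, 250 before and 50 after a start, were taken from RefSeq (GRCh38.p14) and matched 32 of the 36 genes. On both strands, the ER stress elements ERSE (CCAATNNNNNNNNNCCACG) and ERSE-II (ATTGGNCCACG) and the element UPRE (TGACGTGG) were searched. The C/EBP-ATF response element of ATF4, CARE, was searched in the form TGATGNAAT. ERSE and ERSE-II share the letters of their 2 ends, in opposite orientation at one of them, and the ERSE-II nearer to the far end of the HYOU1 window overlaps its UPRE. ERSE was found in 0.0769% of all 35116 windows and ERSE-II in 0.0541%. Counted by gene, these were 0.14% and 0.105% of the 14235 measured genes with a window. Of the 11 XBP1 and ATF6 targets, 7 held one or the other. The genes were listed as known targets, so this count is no result of the arrays. ERSE was in the windows of CALR, CANX, CRELD2 and PDIA6, and also of the regulator XBP1, and ERSE-II was in those of HERPUD1, HYOU1 and SDF2L1. Of the 15 ATF4 targets with a window, 0 held either. Only these exact letters were searched, so this 0 does not show that the genes lack such elements. With its closing T, CARE was in 0.991% of windows and in 0 of these genes. Its first 8 letters (TGATGNAA), searched after that was seen, were in 3.62% of windows. They were in those of ASNS, CHAC1, SLC3A2, HERPUD1 and PPP1R15B. The closing T makes the longer form strict, so the 0 does not show that these genes lack a CARE. Elements outside the windows were not searched. UPRE was in 0.729% of windows, or 1.09% of measured genes with a window, and, among the listed genes, in that of HYOU1. A match is a description of letters and not a binding site. Stretches are shown in the sense of the gene, 5′ to 3′, with the element in capitals, for elements that lie before the first start listed. All but that of CHAC1 belong to genes that differed by less than 2-fold and were chosen after their values were seen. For TRIB3 and STC2, the genes with the lowest and the highest difference, the 100 bases before the first start are shown, in which none of these elements was found. First come the 8 letters of CARE, on either strand.
CHAC1 (chr15:40953250-40953281, plus strand): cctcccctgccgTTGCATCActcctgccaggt
ASNS (chr7:97872457-97872488, minus strand): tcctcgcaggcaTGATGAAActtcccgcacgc
PPP1R15B (chr1:204412025-204412056, minus strand): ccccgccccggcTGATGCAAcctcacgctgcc
HERPUD1 (chr16:56931954-56931985, plus strand): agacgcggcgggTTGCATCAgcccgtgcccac
ERSE, ERSE-II and UPRE follow.
XBP1 with ERSE (chr22:28800591-28800633, minus strand): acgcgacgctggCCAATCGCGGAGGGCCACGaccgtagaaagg
CRELD2 with ERSE (chr22:49918542-49918584, plus strand): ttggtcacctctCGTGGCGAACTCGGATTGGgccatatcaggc
CALR with ERSE (chr19:12938372-12938414, plus strand): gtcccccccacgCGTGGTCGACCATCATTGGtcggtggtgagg
HERPUD1 with ERSE-II (chr16:56932013-56932047, plus strand): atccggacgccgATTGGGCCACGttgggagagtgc
SDF2L1 with ERSE-II (chr22:21642102-21642136, plus strand): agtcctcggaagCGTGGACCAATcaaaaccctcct
HYOU1 with ERSE-II (chr11:119057262-119057296, minus strand): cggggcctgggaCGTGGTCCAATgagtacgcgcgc
HYOU1 with its other ERSE-II (chr11:119057368-119057402, minus strand): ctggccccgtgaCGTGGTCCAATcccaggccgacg
HYOU1 with UPRE (chr11:119057374-119057405, minus strand): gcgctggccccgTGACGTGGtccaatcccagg
The stretches without an element are these.
TRIB3 (chr20:381195-381294, plus strand): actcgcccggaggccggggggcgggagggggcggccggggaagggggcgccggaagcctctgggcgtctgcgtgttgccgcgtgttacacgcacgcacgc
STC2 (chr5:173328415-173328514, minus strand): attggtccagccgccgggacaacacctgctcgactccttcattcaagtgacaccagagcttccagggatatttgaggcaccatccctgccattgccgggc

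The arrays give log2 expression levels that the authors processed, and a difference is pH 6.4 + DCA minus control throughout, so that a log2 difference of 1 is 2-fold. The treatment targets no single gene, so the labels were not checked against a targeted gene. Every direction given here rests on those labels. Some chromosome medians, given below, run opposite to copy number changes that the paper states. Exchanged labels would reverse every direction, and this was not tested. The lower quartile, median and upper quartile of all genes were 4.48, 6.77 and 9.56 on the control array and 4.50, 6.72 and 9.54 on the pH 6.4 + DCA array. Across all genes, the differences centred on 0.00 (median), with an SD of 0.59. The epithelial markers KRT8, KRT18, KRT19, EPCAM and CDH1 lay above the upper quartile on both arrays, and all were lower with pH 6.4 + DCA. KRT18 and EPCAM were 2.77-fold and 2.96-fold lower, and KRT8, KRT19 and CDH1 1.56-fold, 1.55-fold and 1.79-fold. The squamous keratins KRT5 and KRT14 were above the upper quartile as well, with KRT5 1.52-fold and KRT14 7.38-fold lower. Of 7 columnar and Barrett markers measured, KRT7 was above the upper quartile and 1.55-fold lower, and CDX2 was at 6.59 and 6.42. CDX1, TFF1, MUC5AC and VIL1 were under the lower quartile on both arrays, as was TFF3 on the control array. Of 6 leukocyte, stromal and endothelial markers measured, none was above the upper quartile on either array and none passed 2-fold. PTPRC, CD3E, COL1A1 and PECAM1 were below the median on both arrays, whereas VWF, at 7.06 and 6.95, and COL1A2, at 8.51 and 8.26, were above it. The part of the lower keratins, EPCAM and CDH1 in the values given below was not tested. The RNA comes from whole cultures, so that fewer cells with a transcript and less of it per cell cannot be told apart.

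ATF4 targets that act in stress signalling were the genes with the lowest differences, together with PHGDH, the first enzyme of serine synthesis. TRIB3, CHAC1, PHGDH, NUPR1 and DDIT3 were at least 2-fold lower with pH 6.4 + DCA, by 2.08-fold for DDIT3 to 3.06-fold for TRIB3. None of the 35 genes was 2-fold higher, and the other 30 were neither. Over all genes, 4.12% were at least 2-fold lower and 2.51% at least 2-fold higher. Of the 35 genes, 27 had a mean level no lower than the upper quartile of all genes, and over all 4415 genes of such levels the shares were 4.76% and 2.72%. At 1.5-fold, 8 of the 35 were lower and 1 was higher, against 11.8% and 10.6% of all genes. All 5 genes that were lower are listed here as ATF4 targets, in a list that gives each gene 1 role only. The calls rest on 1 array per condition.

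**Figure D1:**
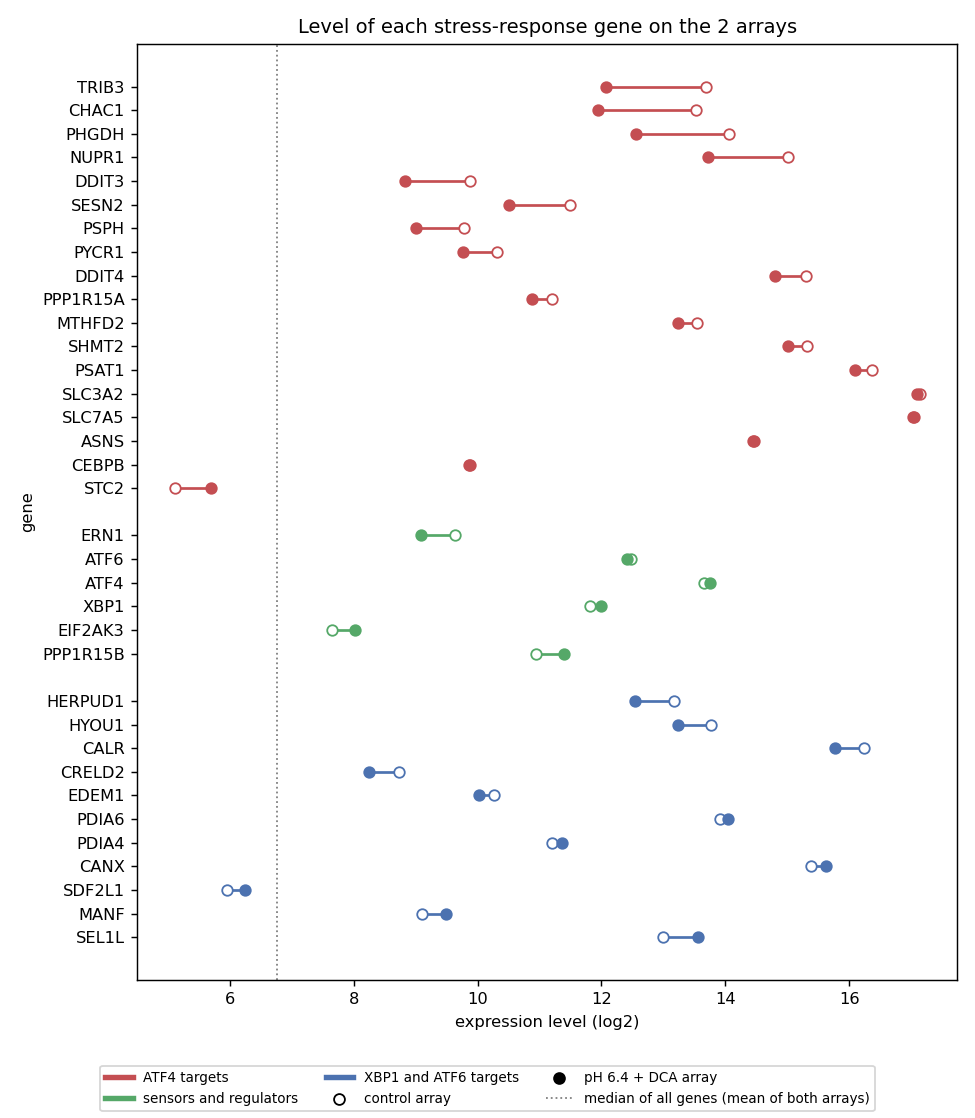
Log2 expression level (horizontal axis) of the 35 measured genes (vertical axis), grouped by role and ordered by difference, with open circles for the control array and filled circles for the pH 6.4 + DCA array. The widest gaps are those of TRIB3 (13.69 and 12.07), CHAC1 (13.53 and 11.94) and PHGDH (14.07 and 12.56), all towards lower levels with pH 6.4 + DCA. Different genes are read by different probes, so the circles of a gene are compared with each other and not with those of another gene.

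The lowest differences in the stress group were those of 4 genes that ATF4 is known to switch on when stress persists. TRIB3, a pseudokinase that binds ATF4 and restrains it, was at 13.69 on the control array and 12.07 with pH 6.4 + DCA, a log2 difference of -1.61, and 1.40% of all genes had a difference as low. CHAC1, which degrades glutathione and whose window carries the 8 letters of CARE, was at 13.53 and 11.94, a difference of -1.59. Both levels of each gene lay above the upper quartile of their array, and 32.7% of the control level was left for TRIB3 and 33.3% for CHAC1. NUPR1, a stress-induced chromatin protein, went from 15.01 to 13.73, a difference of -1.29 that leaves 41.0% of control. DDIT3, which encodes CHOP, the factor that links lasting ER stress to cell death, went from 9.88 to 8.83, a difference of -1.06 that leaves 48.1%. DDIT3 was the nearest of these to the 2-fold threshold, and 3.70% of all genes had a difference as low as its own.

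Other stress regulators did not pass 2-fold. SESN2, a sensor of leucine that restrains the growth kinase complex mTORC1, lay just short of it, at 11.50 and 10.51, a difference of -0.98, and 4.28% of all genes were as low. DDIT4, another inhibitor of mTORC1, was at 15.31 and 14.80, and PPP1R15A (GADD34), the stress-induced subunit of the phosphatase that removes the phosphate from eIF2, at 11.21 and 10.88. CEBPB, a partner of ATF4 on DNA, was level at 9.87 and 9.88. STC2, a secreted glycoprotein, was the single gene of the 35 past 1.5-fold upward, from 5.11 to 5.70, both below the median of the arrays, and its difference of 0.59 became 0.34 with 32 added on the linear scale and 0.30 relative to the median of its chromosome. Of the 9 stress regulators measured, 4 were lower, beside 4.12% of all genes, and the median difference was -0.98.

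Genes of serine, one-carbon and proline synthesis all had differences below 0, but PHGDH was alone past 2-fold. PHGDH, which draws carbon from glycolysis into serine, went from 14.07 to 12.56, a difference of -1.51 that leaves 35.2% of control. The later steps of the pathway differed by less. PSAT1, the aminotransferase of the second step, was at 16.36 and 16.09, a difference of -0.27, or 82.7% of control. PSPH, the phosphatase of the last step, was at 9.78 and 9.01, a difference of -0.77, or 58.6%. PSPH has a closely related pseudogene, and the sources used here do not say whether its probes tell them apart. SHMT2 and MTHFD2, which carry the carbon of serine into mitochondrial folate, were at 81.0% and 80.5% of control, with differences of -0.30 and -0.31. PYCR1, the last enzyme of proline synthesis, was at 10.31 and 9.77, a difference of -0.54. The median of the 6 genes was -0.43, beside 0.00 over all genes.

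Genes of amino acid transport and asparagine synthesis were nearly level. ASNS, asparagine synthetase, which also carries the 8 letters of CARE before its start, was at 14.46 on both arrays, a difference of -0.0010. SLC7A5 (LAT1), the carrier of large neutral amino acids, was at 17.04 on both, and its heavy chain SLC3A2 (CD98) at 17.15 and 17.10. ASNS, SLC7A5 and SLC3A2 are, like CHAC1 and PHGDH, known targets of ATF4. SLC7A5 and SLC3A2 lay near the top of the scale. Of the 84 genes with a mean level of 16 or more, 2 were at least 2-fold lower and none was higher, beside 4.12% and 2.51% of all genes.

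**Figure D2:**
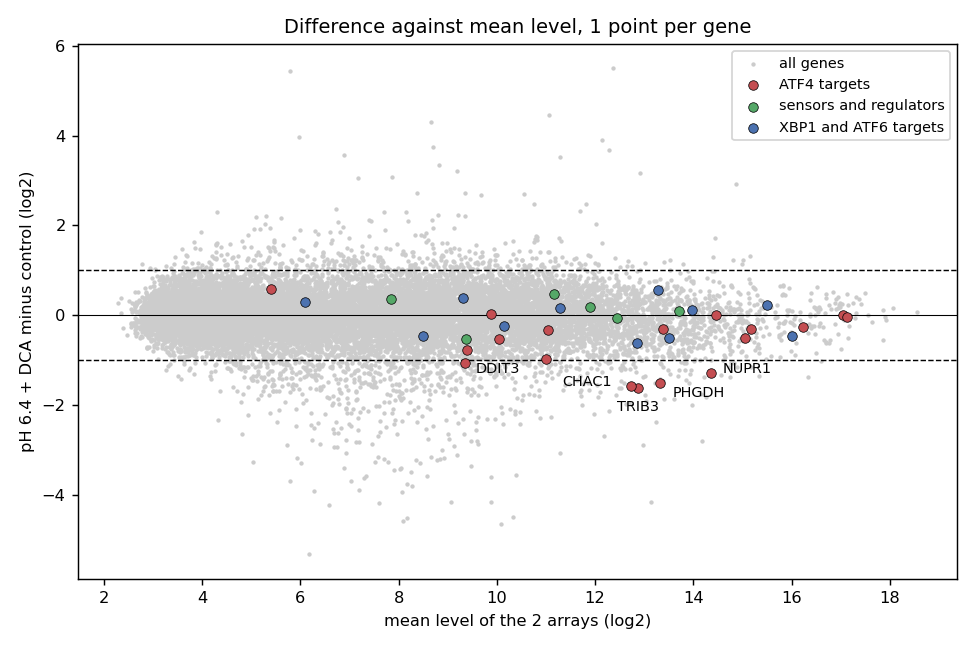
Difference, pH 6.4 + DCA minus control (vertical axis, log2), against the mean level of both arrays (horizontal axis, log2) for 17658 genes in grey and the 35 genes in colour by role, with dashed lines at 2-fold. TRIB3, CHAC1, PHGDH, NUPR1 and DDIT3 lie under the lower line at mean levels in the upper part of the range, and the XBP1 and ATF6 targets lie between the lines.

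The sensors and the transcription factors themselves differed by less than 1.5-fold. ATF4 was at 13.66 and 13.75, a difference of 0.10, while its targets TRIB3 and CHAC1 were lower. XBP1 was at 11.81 on the control array, with a difference of 0.18, and ATF6 at 12.48 and 12.42. EIF2AK3 (PERK) was at 7.66 and 8.02, a difference of 0.37, and ERN1 (IRE1) at 9.63 and 9.09, a difference of -0.54. The sensors thus lay on both sides of 0. PPP1R15B (CReP), the constitutive counterpart of GADD34, was at 10.94 and 11.40, a difference of 0.46. The 6 genes had a median of 0.14.

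Targets of XBP1 and ATF6 were neither higher nor lower at 2-fold. The highest difference was that of SEL1L, the adaptor of the ER degradation ligase HRD1, from 13.00 to 13.56, or 0.56. The lowest was that of HERPUD1, another component of ER-associated degradation, from 13.17 to 12.54, or -0.63. HERPUD1 is a target of ATF4 as well as of ATF6, and its window held both ERSE-II and the 8 letters of CARE. The folding factors fell on both sides of 0. HYOU1, an ER chaperone of the HSP70 family, was at 13.76 and 13.24, the lectin chaperone CALR at 16.24 and 15.77, and its membrane-bound relative CANX at 15.39 and 15.63. The protein disulfide isomerases PDIA4 and PDIA6 differed by 0.16 and 0.13. MANF, a secreted survival factor of the ER, was at 9.11 and 9.50, CRELD2 at 8.72 and 8.25, and SDF2L1, a cofactor of ER chaperones, at 5.95 and 6.25, below the medians of the arrays. EDEM1, a lectin that sends misfolded glycoproteins to degradation, differed by -0.25. Genes with ERSE had differences on both sides of 0, with CRELD2 and CALR at -0.47 and CANX, XBP1 and PDIA6 at 0.24, 0.18 and 0.13. Over all 20 measured genes with ERSE in a window, these 5 among them, the median was 0.12 and none passed 2-fold. Over the 15 with ERSE-II, HERPUD1, HYOU1 and SDF2L1 among them, the median was -0.38 and 2 were lower. Over all genes, 4.12% were lower and 2.51% higher, and counts this small do not mark out genes with either element.

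Side by side, the ATF4 targets lay below the XBP1 and ATF6 targets. Of 18 ATF4 targets measured, 5 were at least 2-fold lower and 16 had a difference below 0, with a median of -0.42 and a range of -1.61 to 0.59. Of 11 XBP1 and ATF6 targets, none was 2-fold lower and 5 had a difference below 0, with a median of 0.13 and a range of -0.63 to 0.56. Over all genes the median was 0.00, with 8829 of 17658 below 0 and 4.12% at least 2-fold lower. With a share that low, a count of none among 11 does not set the XBP1 and ATF6 targets apart from all genes. The medians differed by -0.54, and the ranges overlapped over the whole span of the XBP1 and ATF6 targets. Chromosomes 5, 7 and 9, which carry 6 of the 35 genes, had median differences of 0.29, 0.28 and 0.31 over their genes with a mean level not below the all-gene median. On the other chromosomes the medians ran from -0.23 (chromosome 18) to 0.09 (chromosome 13). By array comparative genomic hybridization, the paper states that treated CP-A lost chromosomes 5, 7, 8, 9 and 12. It names gains of 3, 10, 18, 20 and Y. The medians of 5, 7 and 9 were on the opposite side of 0, as were those of 18 and 20 (-0.12). Those of 8, 12, 3 and 10 were -0.02, -0.0044, -0.0058 and 0.015, and Y was not among the genes analysed. Taken relative to the median of each gene's own chromosome, the median of the XBP1 and ATF6 targets was -0.12 and that of the ATF4 targets -0.50, and PSPH, on chromosome 7, was then also 2-fold lower, at -1.05.

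**Figure D3:**
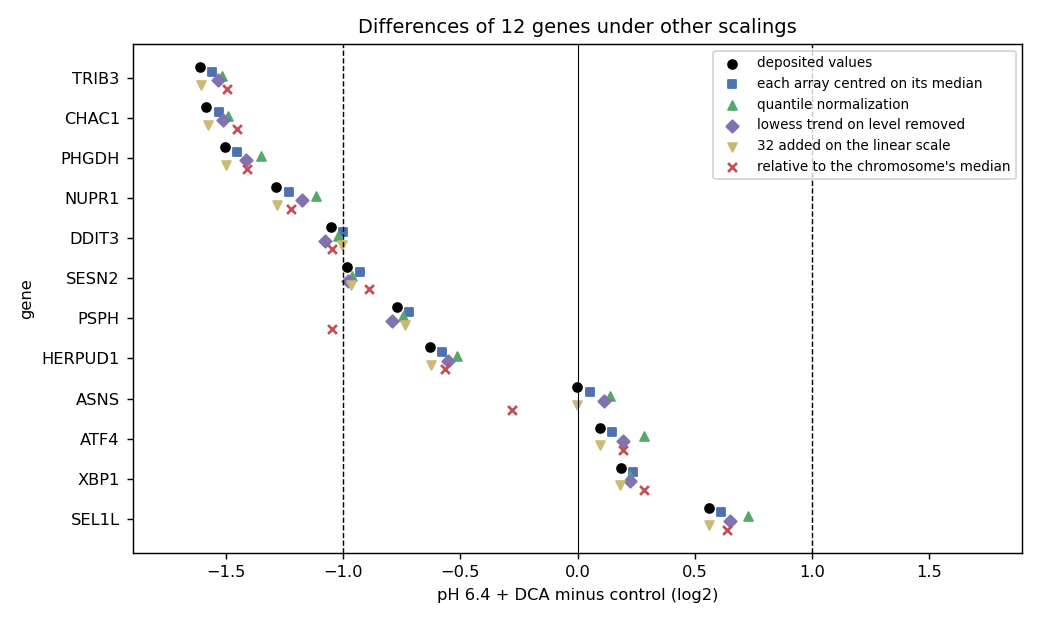
Difference (horizontal axis, log2) of 12 genes (vertical axis) with the deposited values and under 5 other scalings, with dashed lines at 2-fold. TRIB3, CHAC1, PHGDH, NUPR1 and DDIT3 stay beyond the lower line. DDIT3 is the nearest and all but touches it, at -1.002 with median centring. SESN2 stays short of the line with its lowest at -0.98.

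Further genes of these pathways, none of them on the list, gave a mixed picture. Among 26 other ATF4-responsive genes measured, the median was -0.21, and 4 genes were lower, 2 higher and 20 neither. The shares of all genes were 4.12% lower and 2.51% higher. PCK2, the mitochondrial enzyme that makes phosphoenolpyruvate, had the lowest difference, from 9.59 to 7.34, or -2.25. NDRG1, a gene induced by several stresses, differed by -1.27, CTH, an enzyme of cysteine synthesis, by -1.04, and the serine carrier SLC1A4 by -1.03. SLC1A4 was at 6.48 and 5.45, below the median of both arrays. CTH and SLC1A4 lie close to the threshold, and the calls of these further genes were not repeated under other scalings. Both higher genes, named after their values were seen, were ATF3, a stress-induced factor, from 9.34 to 10.67, or 1.33, and CBS, the step before CTH, from 7.39 to 8.75, or 1.35. CBS has a near-identical copy in the genome annotation, so the assignment of its signal is uncertain. Members of this group that did not pass 2-fold lay on both sides of 0. SLC38A2 at -0.10 and ALDH1L2 at 0.00 were near level. GDF15 differed by -0.88, SLC6A9 by -0.77 and JDP2 by -0.64, and KLHL24 by 0.85 and SLC7A11 by 0.61. At 1.5-fold, 7 of the 26 were lower and 4 higher, against 11.8% and 10.6% of all genes.

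Genes of translation and of ER folding mostly differed by less than 2-fold. So did most of all genes, of which 4.12% were at least 2-fold lower and 2.51% higher. Except for the mitosis genes, the counts below are too small to set these lists apart. Of 16 cytosolic aminoacyl-tRNA synthetases, many of them ATF4 targets, 2 were lower, NARS1 at -1.51 and WARS1 at -1.15, and the median was 0.02. Of 11 subunits and kinases of eIF2 and eIF2B, none passed 2-fold, and the median was 0.15. The kinases GCN2 (EIF2AK4) and HRI (EIF2AK1) differed by -0.04 and 0.15. Of 33 other ER folding and degradation genes, 1 was lower, SEC23B at -1.05, and 1 was higher, EDEM3 at 1.23, both named after their values were seen, with a median of -0.03. HSPA5 (BiP), the chaperone that holds the ER sensors inactive, was level at 16.46 and 16.47. It is among the 84 genes with a mean level of 16 or more, of which none was 2-fold higher. DNAJB9, a cofactor of HSPA5 and a target of XBP1, was at 10.70 and 11.02. Of 12 genes of the folate cycle and glycine cleavage, 1 was lower, thymidylate synthase, TYMS, at -1.03. TYMS is a gene of proliferating cells, and 20 of 20 mitosis genes, PLK1, CDC20 and MKI67 among them, were at least 2-fold lower, with a median of -2.96. The part of this shift of the mitosis genes in the lower levels of PHGDH, TRIB3 and the other genes was not tested. The methods name nocodazole, an arrester of mitosis, for RNA used in RT-qPCR, and the sources used here do not say whether the array RNA was treated so.

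**Figure D4:**
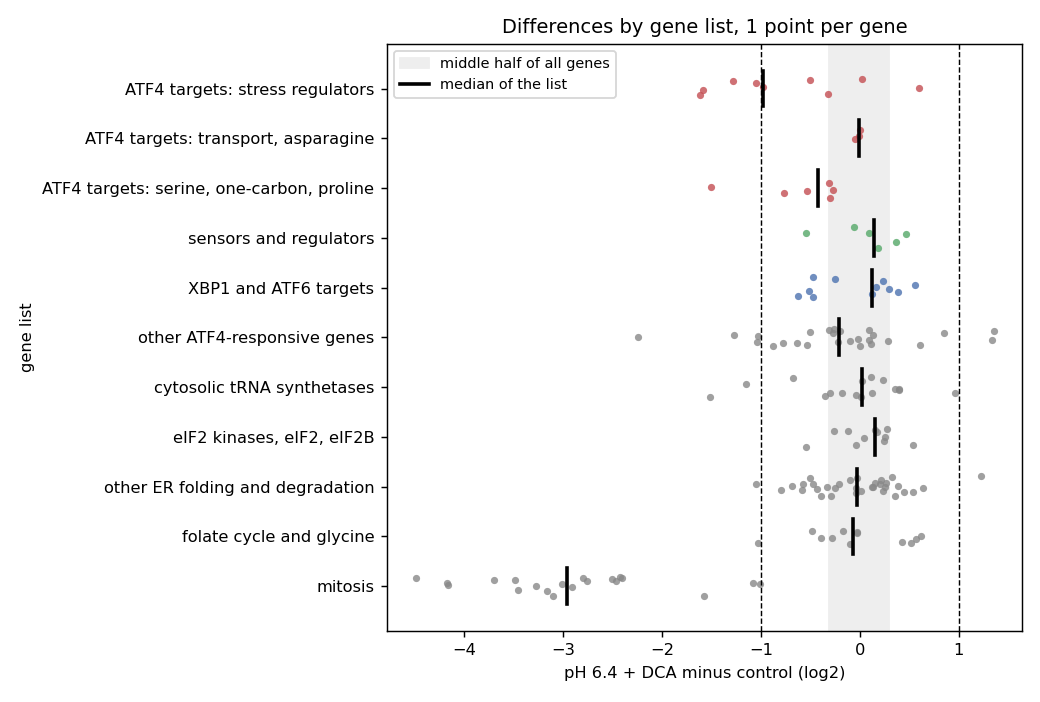
Differences, pH 6.4 + DCA minus control (horizontal axis, log2), 1 point per gene, for the roles of the 35 genes in colour and for other lists of the pathway and mitosis in grey (vertical axis). Bars mark each list's median, from -0.98 for the stress regulators among ATF4 targets and 0.13 for the XBP1 and ATF6 targets to -2.96 for mitosis, and the shaded band spans the quartiles of all genes, -0.31 to 0.30.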

How the data were processed

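The authors hybridized RNA of 1 control and 1 pH 6.4 + DCA culture of CP-A to Clariom S human arrays and made log2 expression levels in Transcriptome Analysis Console 4.0 (submitters' processing notes). The deposited log2 table holds 21448 rows. How background, summarization and normalization were handled, and on which genome build, is not given in the sources used here. Symbols came from the platform annotation, which gives 1 symbol for 17709 rows, several for 0 and none for 3739. Chromosomes came from RefSeq. Per gene, the row with the highest mean level was kept.

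The control level was subtracted from the pH 6.4 + DCA level, and genes that differed by at least 2-fold, the threshold of the methods, were called. The 2 arrays allow no test, and their number sets the precision. The genes and lists were chosen with earlier results of these data known. From each further list, up to 4 genes past 2-fold in the more frequent direction are named, and others are values named after they were seen. Alternatives were median centring, quantile normalization, removal of a lowess trend (span 0.3), 32 added on the linear scale, no genes under the 25th percentile of mean level, the mean of a gene's rows, differences relative to the chromosome's median, and thresholds of 1.5-fold and 3-fold. Steps were tested on simulated data with planted log2 differences of size 2, larger than those of the listed genes. Such data do not test calls near 2-fold. Python 3.11.15, numpy 2.4.6, pandas 2.3.3, statsmodels 0.14.6 and matplotlib 3.10.9 were used.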

Additional observations from a re-analysis of the deposited data

How the results depend on the processing

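The 5 genes that were 2-fold lower, TRIB3, CHAC1, PHGDH, NUPR1 and DDIT3, were so under all 7 alternatives at that threshold, of which leaving out dim genes and averaging a gene's rows cannot change these genes. DDIT3 was so by a hair, at -1.002 with median centring and -1.005 with 32 added, and SESN2, at -0.98, was short of it by little more. Of 245 values of single genes under alternatives, 244 kept their side of the threshold and 1, PSPH relative to its chromosome's median, passed it, which made the count of lower genes 6. Leaving out dim genes and averaging rows gave the deposited difference for all 35 genes, so that part of the 245 could not move. With a threshold of 1.5-fold, 8 genes were lower and 1 was higher, beside 11.8% and 10.6% of all genes. With 3-fold, TRIB3 and CHAC1 were lower and none was higher. CHAC1 passed 3-fold only barely, at 3.0016-fold, and the share of all genes past 3-fold was not counted. The median of the ATF4 targets ranged from -0.50 to -0.32. Relative to the chromosomes' medians, that of the XBP1 and ATF6 targets changed sign, from 0.13 to -0.12, and the gap between both medians was -0.38 in place of -0.54. With 32 added, the median of the mitosis genes was -2.66, and 248 of all genes were higher and 500 lower, in place of 444 and 727. No paired analysis was possible because each condition has 1 array. Signals near the top of the scale, as for SLC7A5 and HSPA5, and below the median, as for STC2 and SDF2L1, limit what a difference can show.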
